A study of Mus musculus with 18 samples.

Results

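Genes of the constitutive proteasome were examined in migrating dendritic cells (DCs). The count table listed 29875 genes, of which 50 had a symbol of the form Psma to Psmg followed by a number. The immunoproteasome subunits Psmb8, Psmb9, and Psmb10 were left out by rule. Psmc3ip, Psma8, and Psmb11 were left out because their mean over the 18 libraries was below 1 CPM (counts per 1000000 counts of the library, here on total counts) at 0.875, 0.66, and 0.00818 CPM. The 44 remaining protein-coding genes were the members, and the lowest of them were Psmg2 at 5.19 CPM, Psmg1 at 7.14 CPM, and Psmg3 at 8.62 CPM. They comprised 14 genes of the 20S core (7 Psma and 7 Psmb), 20 genes of the 19S regulator (6 Psmc and 14 Psmd), 5 Psme genes, the inhibitor Psmf1, and the 4 chaperones Psmg1 to Psmg4. All 44 passed the filter on low counts, and the lowest count of a member in any library was 37.

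DCs were grown from bone marrow of wild-type C57Bl6/J mice, 8 to 12 weeks old, with GM-CSF, and all of them received lipopolysaccharide at 200 ng/ml for 24 hours at day 8. They were therefore stimulated DCs in every group, and no group held unstimulated cells. In 4 groups the cells were embedded in 3D gels of bovine collagen at 1.7, 2.6, 3.5, or 4.4 mg/ml under a gradient of the chemokine CCL19, and RNA was taken after 5 hours. The other 2 groups were cells in the same chambers without collagen, here called suspension. One suspension group is titled plus CCL19 and the other without, but the library names state the opposite, so the titles serve here as names only and nothing is said of the effect of CCL19. Each group held 3 libraries. Libraries with the same replicate number shared a date and a sequencing lane, and nothing in the labels says which replicates came from separate mice, so the p-values measure the spread between these libraries.

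The proteasome degrades proteins that carry ubiquitin chains. Its 20S core is a barrel of stacked rings, in which the alpha subunits (Psma) form the gate and the beta subunits (Psmb) line the chamber, and Psmb5, Psmb6, and Psmb7 carry the cutting sites. The 19S regulator caps the barrel, where its Psmc ATPases unfold the substrate and its Psmd subunits bind and remove ubiquitin. Psme1 and Psme2 form the PA28 cap, Psme3 forms a related nuclear cap, and Psme4 is the PA200 cap. Psmf1 is the inhibitor PI31, Psmg1 to Psmg4 help the core to assemble, and Psmd5, Psmd9, and Psmd10 help the base of the 19S to assemble and are absent from the finished particle. In stimulated DCs the proteasome also makes peptides for presentation on MHC class I, and Psmb8, Psmb9, and Psmb10 can replace the cutting subunits Psmb5, Psmb6, and Psmb7. Many subunit genes are known targets of the transcription factors Nfe2l1 and Nfe2l2, which bind antioxidant response elements, and of the CCAAT-binding factor NF-Y.

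To show what lies in front of these genes, 120 bases upstream of the first start that RefSeq or the annotation of the count table gives were taken for 2 genes of the cutting sites and 3 genes that passed the test in collagen. They were read from the RefSeq promoter table of GRCm38.p6, which held 40 promoters of 37 members. Capitals mark the core of the antioxidant response element (TGANNNNGC) and the CCAAT box, on either strand, and each sequence is given 5′ to 3′ on the strand of its gene. Psmb5 was read from chr14:54618023-54618142 on the minus strand and Psmb6 from chr11:70525237-70525356 on the plus strand, and each held 1 response element core. Psma5 was read from chr3:108256806-108256925 on the plus strand and Psme4 from chr11:30771606-30771725 on the plus strand, and neither held one. Psmd10 was read from chrX:140956729-140956848 on the minus strand and held 2 CCAAT boxes.
Psmb5: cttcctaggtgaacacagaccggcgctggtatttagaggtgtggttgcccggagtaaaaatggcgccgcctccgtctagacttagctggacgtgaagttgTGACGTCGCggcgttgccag
Psmb6: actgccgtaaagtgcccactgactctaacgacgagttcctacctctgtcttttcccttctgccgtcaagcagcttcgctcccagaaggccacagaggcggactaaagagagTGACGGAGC
Psma5: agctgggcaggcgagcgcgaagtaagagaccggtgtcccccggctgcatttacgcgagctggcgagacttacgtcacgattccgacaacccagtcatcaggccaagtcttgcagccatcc
Psmd10: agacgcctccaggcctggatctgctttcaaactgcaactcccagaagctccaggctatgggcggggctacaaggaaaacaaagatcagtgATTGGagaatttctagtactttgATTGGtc
Psme4: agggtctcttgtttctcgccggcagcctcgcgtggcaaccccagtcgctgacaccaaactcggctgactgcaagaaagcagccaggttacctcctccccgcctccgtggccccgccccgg
In windows of 250 bases before the start, the response element core was found in 15 of the 40 member promoters (37.5%) and in 35.2% of all 32851 promoters of the table. Psmd5 (at position −153) and Psmc6 (at −241 and −227), which also passed the test in collagen, held it there. The CCAAT box was found in 30.0% of member promoters and in 33.8% of all. The GC box (GGGCGG, left in lower case above) was found in 55.0% of member promoters and in 32.7% of all, on both strands as for the other motifs. A match is a match of letters and does not show that a factor binds there.

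Total counts ranged from 13062944 to 28059839 per library, and no 2 of the 18 libraries held the same counts. Levels are given as CPM after TMM scaling, and a gene was called changed at an FDR of 0.1 over all 13844 genes tested with edgeR's quasi-likelihood test. The 9 dendritic markers summed to 15600 to 48200 CPM in the 6 suspension libraries and 22400 to 52400 CPM in the 12 collagen libraries. Of these markers 1 was called lower in collagen, and with the replicate number as a block 1 was called higher and 1 lower. Eosinophil genes moved with the collagen groups: all 7 eosinophil markers tested were lower in collagen (summed 14 to 168 CPM, against 117 to 1340 CPM in suspension). Of 9 neutrophil markers 2 were called lower. The sum over the neutrophil list was 1050 to 5160 CPM in collagen, within the 633 to 9750 CPM of suspension. The 6 macrophage markers summed to 298 to 1820 CPM in collagen and 331 to 1790 CPM in suspension, and the 5 basophil and mast cell markers to 30.6 to 261 and 27.0 to 238 CPM. Markers of T, B, and NK cells reached at most 13.2 CPM in sum, with Cd3e, Cd3g, and Ncr1 below 1 CPM in every library, and fibroblast markers at most 82.8 CPM. None of these macrophage, basophil, lymphocyte, and fibroblast markers was called by edgeR, although with the replicate number as a block 3 macrophage markers and 1 fibroblast marker were called higher and 2 basophil and mast cell markers and 1 T, B, and NK marker lower. The part of these markers in the results below was not tested. The libraries least like the rest were replicate 3 at 2.6 mg/ml (mean Spearman rho 0.919 across genes) and replicate 2 at 4.4 mg/ml (0.923), against 0.928 to 0.956 for the others. Results are also given without them where that changes a call.

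Per length of exon, the member with the highest level was Psme1, a PA28 subunit, at 457 CPM per kb as the mean of 18 libraries. It was followed by the alpha subunit Psma6 at 309 CPM per kb and the beta subunit Psmb6 at 226 CPM per kb. The lowest levels per length were those of the chaperones Psmg2 (2.93 CPM per kb) and Psmg3 (2.96 CPM per kb) and of the alpha subunit Psma3 (4.53 CPM per kb). Subunits of the same ring thus differed widely in these units, from 4.53 to 309 CPM per kb among the alpha subunits and from 26.1 (Psmb7) to 226 CPM per kb among the beta subunits. The length is the union of all annotated exons, so a gene with long, rarely used exons reads low. In the 19S regulator, the ATPase Psmc5 (186 CPM per kb) and the Psmd subunit Psmd8 (153 CPM per kb) stood highest and Psmd9 (5.74 CPM per kb) and Psmd5 (9.61 CPM per kb), both assembly chaperones, lowest. Across libraries, Psmd2 varied least, with its highest library 1.71 times its lowest, and Psme4 varied most, with a ratio of 7.57.

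**Figure D1:**
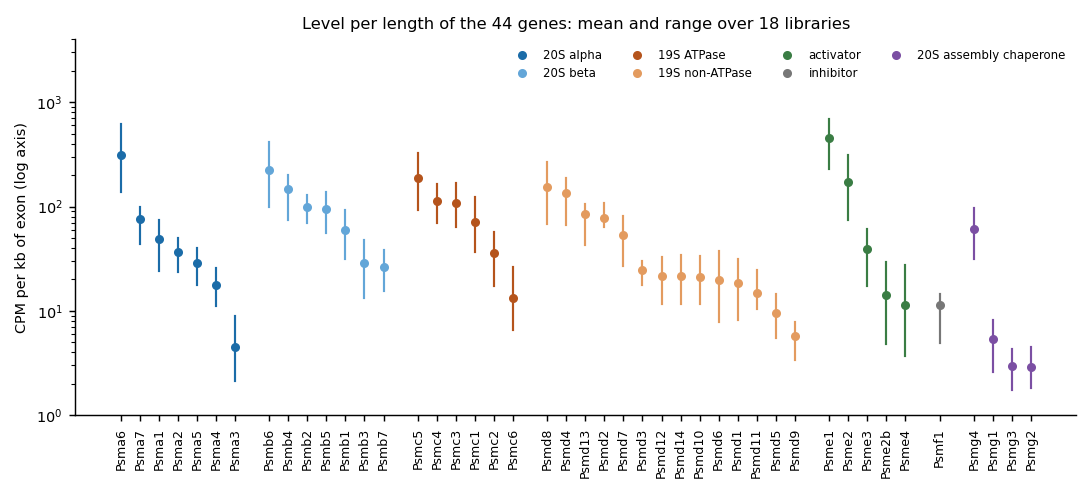
Mean level per kb of exon (CPM per kb, log axis) of the 44 genes, grouped by their place in the proteasome, with bars from the lowest to the highest of the 18 libraries. Psme1 stands highest at 457 CPM per kb and Psmg2 lowest at 2.93 CPM per kb.

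Counts of some members are uncertain, because 9 of the 44 share more than 10% of their 50-base windows with other genes of the annotation and how the counting handled reads with several matches is not given in the sources used here. These are Psme2b (69.29%), Psme2 (59.26%), Psmb5 (57.06%), Psma5 (54.45%), Psmd2 (26.05%), Psma4 (25.63%), Psma3 (22.02%), Psmc1 (17.57%), and Psmb3 (10.07%). Of the other members described in detail, Psme4 and Psmd10 shared none, Psmc6 0.05%, Psmd5 0.46%, and Psmg3 9.82%. Exons of Psmd9 (25.51%), Psmb7 (11.84%), and Psmd13 (10.13%) overlap a gene on the other strand, and those of Psmb5 (12.12%) and Psmg3 (9.68%) a gene on the same strand.

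Cells in collagen and cells in suspension were compared to ask how proteasome genes differed in cells that moved through a gel. Of the 44 members, 6 (13.6%) differed between the mean of the 4 collagen groups and the mean of the 2 suspension groups in edgeR's test, against 20.2% of all genes tested. Higher in collagen were the cap gene Psme4, the 19S chaperones Psmd5 and Psmd10, the ATPase Psmc6, and the alpha subunit Psma5. Lower was the core chaperone Psmg3. The 5 higher members were 11.4% of the 44 and the 1 lower was 2.27%, whereas 7.78% of all genes tested were called higher and 12.4% lower. With the replicate number as a block, 12 members (27.3%) were called, 10 higher and 2 lower, against 34.8% of all genes. By direction these were 22.7% higher and 4.55% lower, against 15.6% and 19.3% of all genes. In both directions together the share of members called lay below that of all genes, and for higher calls alone it lay above. These shares were not tested against each other. In these bulk libraries, fewer cells of a type and less RNA per cell cannot be told apart.

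**Figure D2:**
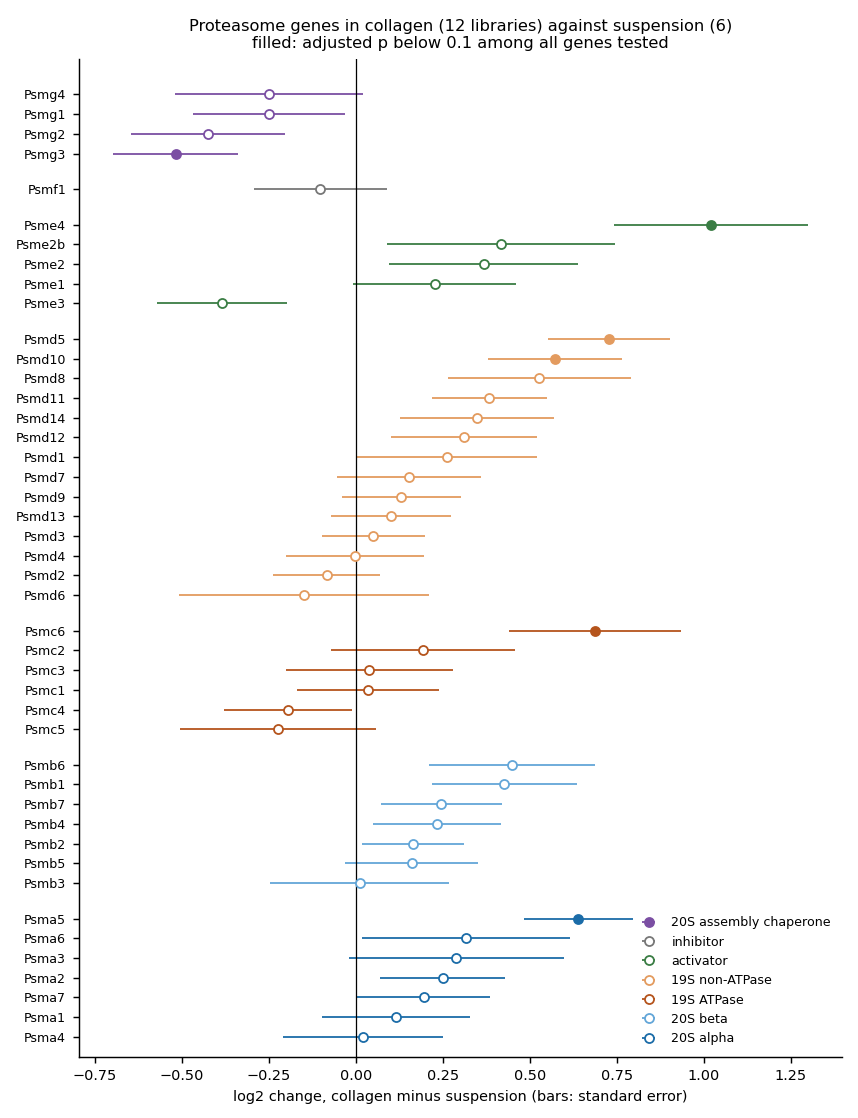
Log2 change of each of the 44 genes in collagen (12 libraries) against suspension (6 libraries), ordered by place in the proteasome, with bars of 1 standard error and filled symbols for an adjusted p below 0.1. All 14 core genes lie above 0, all 4 Psmg chaperones lie below 0, and Psme4 has the largest estimate at 1.02.

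In the 20S core, Psma5, an alpha subunit (chr3:108256926-108279974, plus strand), was the gene that rose in collagen. Its level was 24.9, 29.6, and 27.2 CPM in the suspension libraries titled plus CCL19 and 26.6, 23.6, and 33.0 CPM in those titled without. It was 49.7, 36.6, and 32.3 CPM at 1.7 mg/ml, 48.4, 35.1, and 36.2 CPM at 2.6 mg/ml, 48.1, 44.2, and 33.8 CPM at 3.5 mg/ml, and 46.3, 53.1, and 53.0 CPM at 4.4 mg/ml. Collagen libraries lay above suspension except that replicate 3 at 1.7 mg/ml (32.3 CPM) fell short of the highest suspension library (33.0 CPM). The log2 change was 0.64 ± 0.157 (SE; edgeR quasi-likelihood test, adjusted p = 0.0134). Within replicates 1, 2, and 3 it was 0.90, 0.65, and 0.34. The call was lost without replicate 1 (adjusted p = 0.172 in edgeR), without replicate 2 (0.206), and without the filter on low counts (0.146). The 120 bases of Psma5 shown above hold neither marked motif.

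The other 13 core genes did not pass, yet the estimates of all 14 were above 0, with a median of 0.24, whereas 50.2% of all genes tested had an estimate above 0 and their median was 0.003. The lowest estimates were 0.02 for Psma4 (42.2 ± 12.7 CPM in 6 suspension libraries, 42.5 ± 12.8 CPM in 12 collagen libraries, SD) and 0.01 for Psmb3 (65.8 ± 33.3 and 65.6 ± 15.9 CPM). The median came largely from replicate 1: within replicates 1, 2, and 3 it was 0.68, 0.15, and 0.04. With the replicate block and a correction for GC content and length that was chosen once results were known, 10 of the 14 estimates remained above 0 and the median was 0.04. With that correction the median of the 19S regulator was 0.17.

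Among the cutting subunits, Psmb6 (caspase-like site, chr11:70525367-70527858) read 340 ± 76.5 CPM in suspension and 464 ± 156 CPM in collagen, a log2 change of 0.45 ± 0.239 (SE; edgeR adjusted p = 0.236). By group its mean was 298 ± 71.0 CPM in suspension titled without CCL19, 381 ± 67.1 CPM in that titled plus CCL19, 545 ± 198 CPM at 1.7 mg/ml, 380 ± 220 CPM at 2.6 mg/ml, 431 ± 118 CPM at 3.5 mg/ml, and 502 ± 89.4 CPM at 4.4 mg/ml (SD, n = 3). The groups overlapped, since replicate 3 at 2.6 mg/ml was the lowest of all libraries at 184 CPM and replicate 1 at 1.7 mg/ml the highest at 774 CPM. Psmb5 (chymotrypsin-like site, chr14:54614119-54618022) read 67.1 ± 22.0 and 92.3 ± 31.9 CPM in suspension titled without and plus CCL19, and 97.3 ± 8.0, 73.7 ± 18.7, 95.6 ± 16.2, and 87.2 ± 19.4 CPM from 1.7 to 4.4 mg/ml (SD, n = 3). Its log2 change was 0.16 ± 0.191 (SE), and its suspension groups differed by more from each other than suspension did from collagen. Psmb7 (trypsin-like site, chr2:38588036-38644087) read 79.4 ± 28.3 and 79.2 ± 22.3 CPM in suspension and 94.3 ± 2.7, 82.4 ± 9.23, 95.1 ± 2.1, and 106 ± 21.3 CPM in collagen in the same order, with a log2 change of 0.25 ± 0.173 (SE). None of the 3 cutting subunits was called. With the block, the beta subunit Psmb1 was called higher in collagen (log2 change 0.46, edgeR adjusted p = 0.059), the only core gene added.

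In the 19S regulator, 3 of 20 genes were called higher in collagen and none lower, with a median log2 change of 0.14. Over all genes tested, 7.78% were called higher and 12.4% lower, and these shares were not tested against each other. Psmd5, an assembly chaperone of the base (chr2:34849734-34874968, minus strand), ranged from 39.5 to 61.5 CPM in suspension (median 46.8) and from 42.0 to 106 CPM in collagen (median 82.5). Replicate 2 at 4.4 mg/ml, at 42.0 CPM, and replicate 3 at 1.7 mg/ml, at 56.8 CPM, were the collagen libraries within the range of suspension. The log2 change was 0.73 ± 0.176 (SE; edgeR quasi-likelihood test, adjusted p = 0.0127), and it was 0.82, 0.65, and 0.64 within replicates 1, 2, and 3. The call was lost without replicate 2 (adjusted p = 0.137 in edgeR) and with suspension titled without CCL19 as the only control (0.177).

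Psmd10, known as gankyrin and likewise a base chaperone (X chromosome, 140948429 to 140956728, minus strand), ranged from 17 to 30.0 CPM in suspension (median 22.4) and from 22.8 to 49.3 CPM in collagen (median 33.5). It rose by 0.57 ± 0.193 on the log2 scale (SE; edgeR adjusted p = 0.0602). Psmc6, an ATPase of the base (chr14:45329788-45349705, plus strand), ranged from 23.1 to 41.9 CPM in suspension (median 32.9) and from 29.5 to 92.8 CPM in collagen (median 50.1). Its log2 change was 0.69 ± 0.248 (SE; edgeR adjusted p = 0.0764), and its highest library was replicate 3 at 2.6 mg/ml. For both genes the ranges overlapped, and both calls were lost when any 1 of the 3 replicates was left out. Psmd10 passed in 8 and Psmc6 in 10 of the 15 alternatives run. The third base chaperone, Psmd9, had a log2 change of 0.13 ± 0.17 and was not called. Psmc5 (−0.22) and Psmd6 (−0.15) had the lowest estimates among the ATPases and the Psmd genes, neither called. With the block, the lid subunits Psmd8 (0.48, edgeR adjusted p = 0.0704) and Psmd11 (0.37, 0.0471) were called higher as well.

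Among the caps, Psme4, which forms PA200 (chr11:30771726-30880361, plus strand), showed the largest change of the 44 genes. In suspension it read 30.7, 54.6, and 46.3 CPM (titled plus CCL19) and 61.8, 108, and 38.7 CPM (titled without). In collagen it read 55.8, 111, and 86.9 CPM at 1.7 mg/ml, 74.6, 111, and 232 CPM at 2.6 mg/ml, 94.0, 151, and 115 CPM at 3.5 mg/ml, and 102, 85.4, and 146 CPM at 4.4 mg/ml. The groups overlapped, with replicate 2 of suspension titled without CCL19 above several collagen libraries, and replicate 3 at 2.6 mg/ml stood above every other library. The log2 change was 1.02 ± 0.279 (SE; edgeR quasi-likelihood test, adjusted p = 0.0237), a fold of 2.03, with 0.87, 0.55, and 1.68 within replicates 1, 2, and 3. Without replicate 3 it was 0.69 (edgeR adjusted p = 0.188), and with suspension titled without CCL19 as the only control it was 0.69 (0.302), so neither setting kept the call. Without the highest library it was 0.89 (edgeR adjusted p = 0.0245).

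The PA28 genes Psme1 (911 ± 338 CPM in suspension and 1060 ± 260 CPM in collagen, SD) and Psme2 had log2 changes of 0.23 and 0.37 and were not called. Psme2 and its near copy Psme2b, which share sequence, were called higher with the block (edgeR adjusted p = 0.0714 and 0.0615). Psme3, the nuclear cap, read 137 ± 23.8 CPM in suspension and 105 ± 24.1 CPM in collagen, with a log2 change of −0.39 ± 0.186 (SE). It was below suspension in 3 of 3 replicates and was called lower with the block (edgeR adjusted p = 0.0716). Psmf1, the inhibitor, had a log2 change of −0.10 ± 0.192 and was not called.

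All 4 core chaperones had estimates below 0, with a median of −0.34. Psmg3 (chr5:139823592-139826885, minus strand) ranged from 6.79 to 12.5 CPM in suspension (median 11.2) and from 5.10 to 10.4 CPM in collagen (median 7.45). Apart from replicate 2 of the group titled without CCL19, at 6.79 CPM, the suspension libraries were at 10.3 CPM or above, and in each replicate the library at 1.7 mg/ml was the highest of the gels. The log2 change was −0.52 ± 0.179 (SE; edgeR adjusted p = 0.0656). The call was lost without any 1 replicate, and Psmg3 passed in 10 of the 15 alternatives run. Psmg2 (6.12 ± 1.48 CPM in suspension and 4.57 ± 1.12 CPM in collagen, SD) had a log2 change of −0.43 ± 0.222, below suspension in 3 of 3 replicates, and was not called. Psmg1 and Psmg4 both had log2 changes of −0.25 and were not called.

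**Figure D3:**
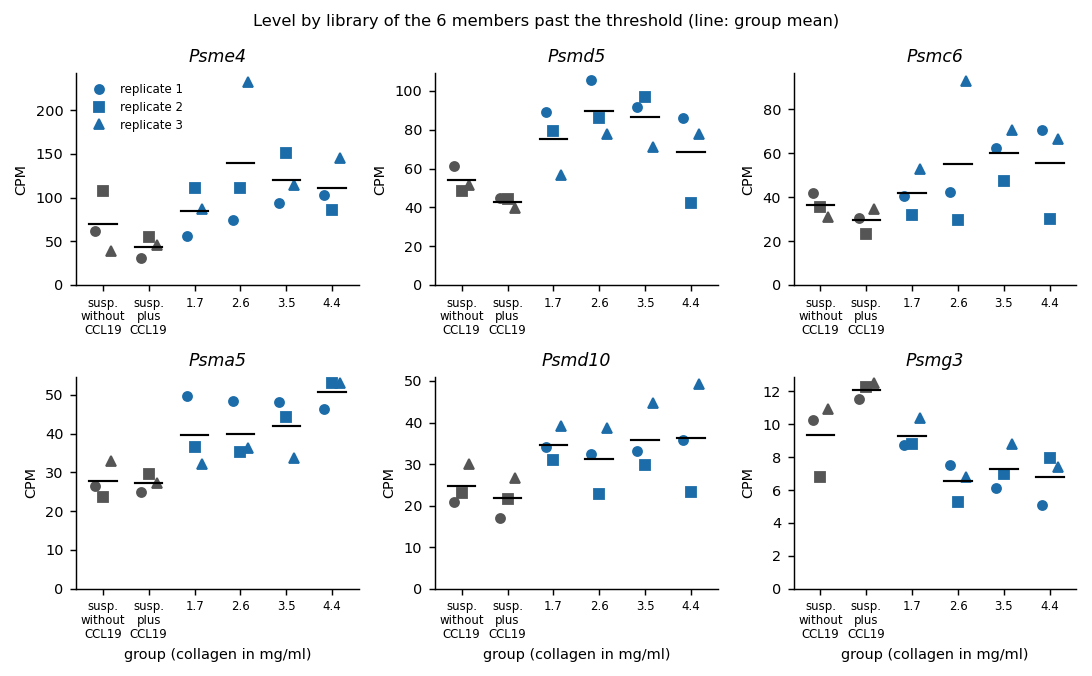
Level in CPM of the 6 genes past the threshold in collagen against suspension, in each of the 18 libraries by group (line, group mean of 3). Psme4 reaches 232 CPM in replicate 3 at 2.6 mg/ml, and Psmg3 is the gene that is lower in collagen.

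Read within replicates, 16 of the 44 members (36.4%) were higher in collagen in 3 of 3 replicates and 3 (6.82%: Psme3, Psmg2, Psmg3) were lower in 3 of 3, whereas these shares were 24.3% and 26.7% over all genes tested. None of the 44 separated the 12 collagen libraries from the 6 suspension libraries without overlap, against 2.02% of all genes tested. Some subunits moved together from library to library. The log2 CPM of a core gene correlated with the mean of the other 13 core genes over 18 libraries with a median r of 0.77, from 0.29 (Psmb6) to 0.93 (Psmb1). In the 19S the median r was 0.63, from −0.13 (Psmd8) and −0.12 (Psmd3) to 0.96 (Psmc2). For deviations from the group means the median r was 0.75 in the core and 0.74 in the 19S. These correlations share library scaling, depth, and sequence composition and are given as descriptions.

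Core and regulator were then set against each other within each library, as the mean log2 CPM of the 14 core genes minus that of the 20 regulator genes. Both means followed each other over the 18 libraries (r = 0.95). The difference was −0.14 ± 0.115 in 6 suspension libraries and −0.08 ± 0.09 in 12 collagen libraries (SD). Collagen lay above suspension by 0.20 in replicate 1 and 0.03 in replicate 2 and was at −0.02 in replicate 3, so the mean difference of 0.07 was smaller than the spread between replicates (SD 0.113). The suspension groups also differed from each other, at −0.22 ± 0.076 titled without CCL19 and −0.07 ± 0.102 titled plus CCL19 (SD, n = 3). In replicate 1 both suspension libraries had the lowest core means of all, 6.27 and 6.28 log2 CPM.

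Among the densities, from the lowest to the highest, the difference was −0.08 ± 0.03, −0.18 ± 0.072, −0.08 ± 0.056, and 0.04 ± 0.032 (SD, n = 3). In each of the 3 replicates 4.4 mg/ml was the highest and 2.6 mg/ml the lowest of the 4 densities. At 4.4 mg/ml the libraries read 0.01, 0.07, and 0.03, and at 2.6 mg/ml they read −0.11, −0.17, and −0.25, so these groups did not overlap. The range at 4.4 mg/ml did overlap suspension, where replicate 2 titled plus CCL19 read 0.018. The score is given without the correction for GC content and length. No test was made of this score, since the members were chosen with results known.

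**Figure D4:**
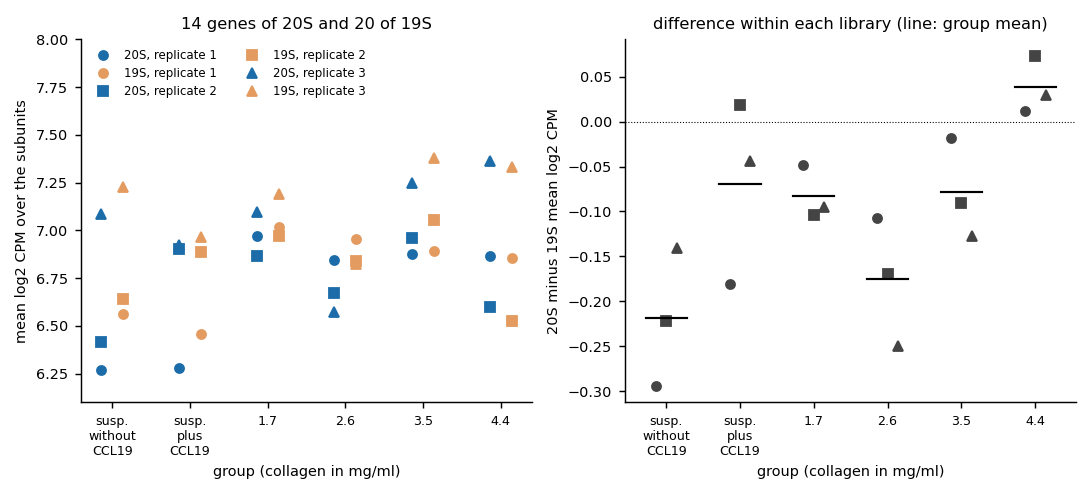
Mean log2 CPM of the 14 core and 20 regulator genes in each library (left) and their difference within each library (right), by group, with a line for the group mean of 3. The difference is above 0 in the 3 libraries at 4.4 mg/ml and in replicate 2 of suspension titled plus CCL19. It is lowest in replicate 1 of suspension titled without CCL19.

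Each density was compared with suspension to ask whether the member genes differed at every density. These comparisons share the 6 suspension libraries and are not independent of each other. At 1.7 mg/ml no member was called by edgeR (4 at an unadjusted p under 0.05, and 0 called by DESeq2), against 0.0361% of all genes. At 2.6 mg/ml 2 members were called, Psmd5 (0.90) and Psme4 (1.34), against 7.87% of all genes. Neither was called without replicate 3 of that density (0 called by edgeR, 4 at an unadjusted p under 0.05), the library least like the rest. At 3.5 mg/ml Psmd5 was called (0.85), against 4.90%, and at 4.4 mg/ml Psma5 (0.89) and Psme4 (1.01) were called, against 14.8%. In DESeq2 the count at 3.5 mg/ml was 4. The block raised these counts to 6 at 2.6 mg/ml (21.6% of all genes), 7 at 3.5 mg/ml (18.4%), and 8 at 4.4 mg/ml (31.9%). At 1.7 mg/ml the count with the block was still 0 (6 members at an unadjusted p under 0.05, and 2.91% of all genes called). At 1.7 mg/ml the estimates were 0.64 for Psmd5, 0.58 for Psmd10, and 0.52 for Psma5. That of Psme4 was 0.61, lower than its 1.34, 1.12, and 1.01 at the higher densities, and the difference between 4.4 and 1.7 mg/ml was not called. The median log2 change of the core was 0.27, 0.05, 0.32, and 0.29 from 1.7 to 4.4 mg/ml, and that of the regulator was 0.25, −0.03, 0.27, and 0.13.

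**Figure D5:**
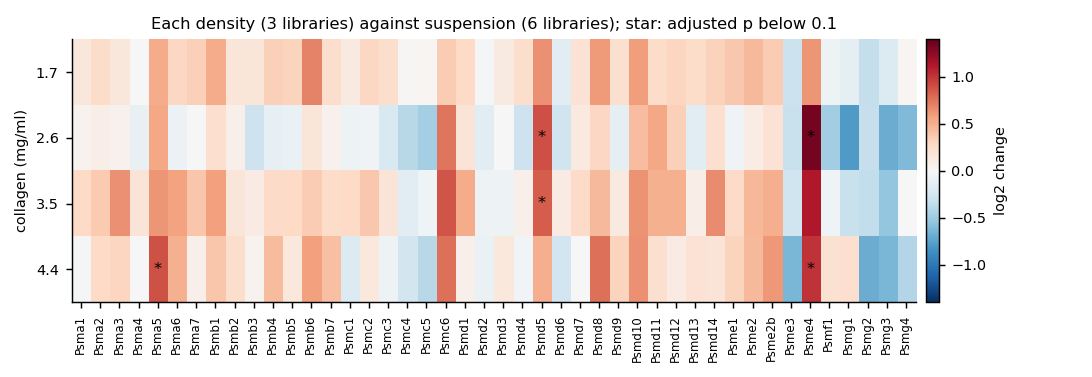
Log2 change of each of the 44 genes at each collagen density (3 libraries) against suspension (6 libraries), with a star for an adjusted p below 0.1. Stars mark Psmd5 at 2.6 and 3.5 mg/ml, Psme4 at 2.6 and 4.4 mg/ml, and Psma5 at 4.4 mg/ml.

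Within collagen, no member was called for density. In edgeR's test of the linear trend 0 of 44 were called (0 at an unadjusted p under 0.05, 0 in DESeq2, 0 with the block), against 0.00722% of all genes (1.45% with the block). The slopes ranged from −0.13 for Psmg3 to 0.18 for Psmg1 in log2 units per mg/ml, with a median of 0.03 for the core and −0.02 for the regulator. Between the ends, 4.4 against 1.7 mg/ml, 0 members were called as well (0 at an unadjusted p under 0.05, 0 in DESeq2, 0 with the block), against 0.00722% of all genes (1.73% with the block), with estimates from −0.45 (Psmg3) to 0.41 (Psmc6). Across all 6 groups at once, 0 members were called by edgeR (3 at an unadjusted p under 0.05, 3 in DESeq2), against 4.90% of all genes. With the block the 3 called were Psma5, Psmd5, and Psme4, against 24.3% of all genes.

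Between the suspension groups 0 members were called (0 at an unadjusted p under 0.05 in edgeR and in DESeq2, and 0 called and 1 at an unadjusted p under 0.05 with the block), and 0.0% of all genes were. The estimates, titled plus CCL19 minus titled without, reached from −0.82 ± 0.421 (SE) for Psmd1, a scaffold of the 19S base, to 0.54 for Psmb3. The difference of Psmd1 had an edgeR adjusted p of 0.761.

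The cutting subunits have immunoproteasome counterparts, and the balance within each pair was compared between collagen and suspension, a comparison chosen after results were known. Per length, Psmb8 stood above Psmb5 (298 against 95.1 CPM per kb over 18 libraries) and Psmb10 above Psmb7 (114 against 26.1 CPM per kb), while Psmb9 stood below Psmb6 (81.4 against 226 CPM per kb). These sizes depend on the union of annotated exons, which is 899 bases for Psmb5, 1872 for Psmb6, and 3421 for Psmb7. On CPM without length, the mean log2 ratios over 18 libraries had the same directions, at 3.55, 1.05, and −0.525 in that order. The log2 ratio of Psmb9 to Psmb6, on CPM without length, was −0.15 ± 0.283 in 6 suspension libraries and −0.71 ± 0.326 in 12 collagen libraries (SD). It was lower in collagen in 3 of 3 replicates, by −0.33, −0.56, and −0.79, and the difference of −0.56 had p = 0.0028 in a two-sided exact permutation test (0.0084 adjusted over the 3 pairs). With libraries exchanged only within replicate numbers, in 3375 regroupings, the exact permutation p was 0.00326 (0.00978 adjusted). The ratio was lowest at 1.7 mg/ml (−0.996 ± 0.333) and at 4.4 mg/ml it was −0.28 ± 0.091 (SD, n = 3), within the range of suspension. With the block alone the difference was −0.56, and with the block and correction for GC content and exon length it was −0.31, which was not tested. The adjustment over 3 pairs does not cover the choice of this comparison after results were known. The p-values of this ratio are therefore given as descriptions. For Psmb10 over Psmb7 the difference was −0.24 (exact permutation p = 0.398, adjusted 0.597) and for Psmb8 over Psmb5 it was 0.009 (exact permutation p = 0.963), with the counts of Psmb5 uncertain as above. With the block and the correction for GC content and exon length they were −0.023 and 0.302, also not tested. The corrected difference of Psmb8 over Psmb5 was thus about as large as that of Psmb9 over Psmb6, in the opposite direction. None of the 3 immunoproteasome genes was itself called by edgeR in collagen, with log2 changes of 0.14 for Psmb8, −0.11 for Psmb9, and 0.11 for Psmb10 (unadjusted p = 0.514, 0.669, and 0.686 in edgeR).

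Genes that act with the proteasome were read from 3 further lists. Of 10 other proteasome parts, 2 rose in collagen and none fell: Txnl1, a thioredoxin-like protein on the 19S (log2 change 1.13 ± 0.262, from 96.3 ± 26.4 to 212 ± 72.0 CPM), and Akirin2, which brings proteasomes into the nucleus (0.53 ± 0.204). Pomp, the maturation protein of the core, was not called (0.22 ± 0.299). The block raised the count to 5 higher and 1 lower, where 34.8% of all genes were called with the block. Of 10 genes that control proteasome transcription, 2 rose, Nfe2l2 (0.90 ± 0.288, from 70.9 ± 26.7 to 137 ± 75.2 CPM) and the NF-Y subunit Nfyc (0.56 ± 0.18, with 34.34% of its windows shared). Nfe2l1, which activates subunit genes when proteasomes are blocked, had a log2 change of −0.05 ± 0.152 and was not called, and with the block 5 of the 10 were called higher and 2 lower, against the same 34.8%.

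Of 11 genes that extract substrates or deliver them, 3 rose: Zfand5 (1.08 ± 0.187, from 43.6 ± 7.42 to 96.7 ± 44.5 CPM), the shuttle Rad23b (0.70 ± 0.178), and the shuttle Ubqln1 (0.46 ± 0.165). Nsfl1c, a cofactor of the segregase Vcp, fell (−0.55 ± 0.194, with 18.46% of its windows shared). With the block 4 of the 11 were called higher and 1 lower. In these lists the errors of log2 changes are SE, those of levels are SD over 6 suspension and 12 collagen libraries, and the test was that of edgeR. The lists were chosen with results known, and their share of called genes is read against 20.2% of all genes without the block and 34.8% with it.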

How the data were processed

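RNA was sequenced from 18 libraries, and the authors deposited whole-number counts per gene without normalization. Per the submitters' processing notes, reads were aligned with STAR 2.7.0f to GRCm38. The methods describe 50-base single-end reads of stranded mRNA libraries. The authors name RSEM for their TPM values, which were not used. Which tool gave the deposited counts is not given in the sources used here.

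From the deposited counts, R 4.3.3 with edgeR 4.0.16 fitted all 18 libraries at once (filterByExpr, TMM, quasi-likelihood F-test, Benjamini-Hochberg FDR 0.1 over 13844 genes), with DESeq2 1.42.0 as an alternative. The biological coefficient of variation fell from 49.0% to 33.1% once the replicate number entered as a block. Log2 CPM used a prior count of 2. Groups came from the labels. Replicate numbers pair libraries because the labels give same-numbered libraries a shared date and lane, and the deviations of 45 such pairs from the group means correlated with a mean r of 0.434 (−0.149 to 0.846).

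Genes named by rule were the cutting subunits, members called in collagen or over density, the extremes of each class and of the level per length, and up to 3 called genes per list. Members and lists were chosen with earlier results of these data known. Shared sequence was counted as 50-base windows of the longest transcript of each gene that were also found in annotated transcripts of other genes. The offsets for GC content and length (loess span 0.5), the omission of 1 library each at 2.6 and 4.4 mg/ml, and the ratios of cutting subunits were chosen after seeing the data. Only the fit of collagen against suspension without the block was tested on simulated counts. These counts held no effect of the replicate number, so that test does not cover the other fits or such an effect. One further list of related genes is not reported here.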

Additional observations from a re-analysis of the deposited data

Results flagged for a closer look

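Each of the 44 member genes was examined for a single library far from the other suspension libraries. In 2 of the 44 genes a library stood apart, about the number that chance gives at 1 in 20. Psmc1, an ATPase of the 19S base, read 195 CPM in replicate 3 of suspension titled without CCL19, against 109 to 130 CPM in the other 5. Gaps were measured on log2 CPM, and that of Psmc1 was 0.702 of the whole range (critical value 0.625). Psmg3, the core chaperone that was lower in collagen, read 6.79 CPM in replicate 2 of suspension titled without CCL19, against 10.3 to 12.5 CPM in the other 5. Its gap was 0.679 of the range on log2 CPM, and it is smaller on CPM without the log. With suspension titled plus CCL19 as the only control, the log2 change of Psmg3 in collagen was −0.71, against −0.52 with both suspension groups. Over the 15 alternatives run, its estimate reached from −0.705 to −0.332, and it passed in 10 of them.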

How the results depend on the processing

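The calls were few, and most of them depended on the setting. For collagen against suspension, 6 members were called, and the count was 12 with the replicate block, 15 with the block in DESeq2, 16 without replicate 2 at 4.4 mg/ml and with the block, 17 without replicate 3 at 2.6 mg/ml and with the block, 13 with the block and GC and length offsets, 3 without the filter on low counts, 3 at an FDR of 0.05, 1 with suspension titled without CCL19 as the only control, and 1 to 3 without any 1 replicate. Among the 6 groups, 0 became 3 with the block, 3 in DESeq2, 7 with the block in DESeq2, 1 without the filter, 1 without replicate 2 at 4.4 mg/ml, 7 without it and with the block, 5 without replicate 3 at 2.6 mg/ml and with the block, and 4 with the block and offsets. At 1.7 mg/ml the 0 became 2 with the block in DESeq2, 2 without replicate 2 at 4.4 mg/ml and with the block, 1 without replicate 3 at 2.6 mg/ml and with the block, and 1 with the block and offsets. At 2.6 mg/ml the 2 became 6 with the block, 8 with the block in DESeq2, 7 without replicate 2 at 4.4 mg/ml and with the block, 0 without its replicate 3, 1 without it and with the block, 5 with the block and offsets, 1 without the filter, 1 with only the groups compared, 1 at an FDR of 0.05, 0 with suspension titled without CCL19 as the only control, and 0 to 1 without any 1 replicate. At 3.5 mg/ml the 1 became 7 with the block, 4 in DESeq2, 10 with the block in DESeq2, 2 with RLE scaling, 12 without replicate 2 at 4.4 mg/ml and with the block, 3 without replicate 3 at 2.6 mg/ml, 11 without it and with the block, 7 with the block and offsets, 0 at an FDR of 0.05, 0 with suspension titled without CCL19 as the only control, and 0 without any 1 replicate. At 4.4 mg/ml the 2 became 8 with the block, 11 with the block in DESeq2, 4 without its replicate 2, 9 without it and with the block, 14 without replicate 3 at 2.6 mg/ml and with the block, 11 with the block and offsets, 1 without the filter, 1 with only the groups compared, 1 at an FDR of 0.05, 1 with suspension titled without CCL19 as the only control, and 0 to 1 without any 1 replicate. With the block the share of all genes called rose as well, from 20.2% to 34.8% for collagen against suspension. Among the 6 groups it rose from 4.90% to 24.3%. From 1.7 to 4.4 mg/ml it rose from 0.0361% to 2.91%, 7.87% to 21.6%, 4.90% to 18.4%, and 14.8% to 31.9%. For the other settings these shares are not given here, so their counts are not read as results about the members. The causes of these shifts were not tested. The density trend, 4.4 against 1.7 mg/ml, and the suspension groups gave 0 in every setting run, also with the replicate block.

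Some uncalled estimates changed sign. That of Psma4 (0.02) was −0.008 without the filter, −0.064 without replicate 3 at 2.6 mg/ml, −0.16 with suspension titled without CCL19 as the only control, −0.17 with the block and offsets, and −0.023 to 0.072 without any 1 replicate. That of Psmb3 (0.01) was −0.015 without the filter, −0.26 with suspension titled plus CCL19 as the only control, and −0.17 to 0.26 without any 1 replicate. For Psmb5 (0.16) these were −0.07 with that control and −0.004 to 0.30. For Psmc5 (−0.22) leaving out a replicate gave −0.44 to 0.005, and for Psmf1 (−0.10) it gave −0.21 to 0.029, with 0.077 for suspension titled without CCL19 as the only control, 0.029 with the block and offsets, and 0.011 without replicate 3 at 2.6 mg/ml and with the block.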

Other observations

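Among genes that act with the proteasome, a few were called for density once the replicate number entered as a block, and none was without it. Of 10 genes that control proteasome transcription, 1 was called for the trend and 2 at 4.4 against 1.7 mg/ml. Of 11 genes that extract or deliver substrates, 1 was called in each of these comparisons. Of 10 other proteasome parts and 3 immunoproteasome genes, 0 were called in either. Mafk and Maff encode small Maf proteins, the partners of Nfe2l1 and Nfe2l2. Mafk rose with density by 0.51 log2 units per mg/ml (edgeR adjusted p = 0.0325) and by 1.63 from 1.7 to 4.4 mg/ml (edgeR adjusted p = 0.0241). Maff rose by 1.75 from 1.7 to 4.4 mg/ml (edgeR adjusted p = 0.0911). Zfand5, which binds ubiquitin chains and the proteasome, rose by 0.46 per mg/ml (edgeR adjusted p = 0.0325) and by 1.23 from 1.7 to 4.4 mg/ml (edgeR adjusted p = 0.0305). Over all genes tested, 1.45% were called for the trend and 1.73% at 4.4 against 1.7 mg/ml with the block.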
